A study of Homo sapiens with 5 samples.

Results

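The keratin genes of human chromosomes 12 and 17 are the protein-coding genes of the GENCODE annotation whose symbols consist of KRT, a number and at most 1 further letter. There were 55 of them, 27 on chromosome 12 and 28 on chromosome 17, among 2224 protein-coding genes of both chromosomes and 20046 in the whole annotation. They were chosen by name and chromosome, without any value from the origin lists. The origin lists came from EJ30, 1 bladder carcinoma cell line, with 1 list per condition and no genotype contrast. In ini-seq 2, the cells were arrested in late G1 with mimosine. Their nuclei began replication in a cell-free reaction with HeLa cell extract and BrdUTP. Newly replicated DNA became heavy-light (HL), and unreplicated DNA stayed light-light (LL). The reaction ran for 3 hours or for 15 minutes, and the deposited lists hold 23905 and 10181 origins. In SNS-seq, short nascent strands of 0.5-2 kb and 2-4 kb from the same cell line gave lists of 147657 and 184966 peaks. The paper describes no mimosine step for the SNS-seq cells, so the methods may also differ in this treatment.

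Keratins are the intermediate filament proteins of epithelial cells. Type I keratins, most of them encoded on chromosome 17, pair with type II keratins, encoded on chromosome 12, and only such pairs form filaments. Simple epithelia carry KRT8 with KRT18, stratified epithelia switch from KRT5 with KRT14 in the basal layer to KRT1 with KRT10 above it, and hair and nail have keratins of their own. The urothelium, from which bladder carcinomas arise, is known for KRT7, KRT8, KRT18, KRT19 and KRT20. The lists map DNA replication and hold no RNA, so which keratins EJ30 cells express was not measured here.

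Few keratin genes held an ini-seq 2 origin, and many more held an SNS-seq peak. The most efficient origin lay in a coding exon of KRT10, away from the promoter of that gene. An interval was assigned to a gene when it overlapped the gene or the 2 kb upstream of its 5' end. At 3 hours, 10 of 55 keratin genes had an origin, which is 18.2% (95% exact Clopper-Pearson interval 9.08 to 30.9), against 69.3% of all protein-coding genes on both chromosomes and 66.4% of the 20033 placed across all chromosomes. The 10 genes were KRT80, KRT7, KRT86, KRT84, KRT77, KRT79, KRT78, KRT8, KRT18 and KRT10. At 15 minutes, 3 of 55 (KRT8, KRT18 and KRT10) had an origin, which is 5.45% (1.14 to 15.1), against 46.6% on both chromosomes and 46.9% across all chromosomes. For SNS-seq, 28 keratin genes (50.9%, 37.1 to 64.6) had a 0.5-2 kb peak, against 85.3% and 83.8%, and 36 (65.5%, 51.4 to 77.8) had a 2-4 kb peak, against 86.2% and 84.6%. These intervals cover counting error only and take the genes as independent. Keratin genes lie in clusters, and KRT8 and KRT18 were both counted for an origin they share, so the intervals are likely too narrow. Each condition has a single list without counts, so depth per interval is unknown and no difference could be tested against replicates.

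**Figure D1:**
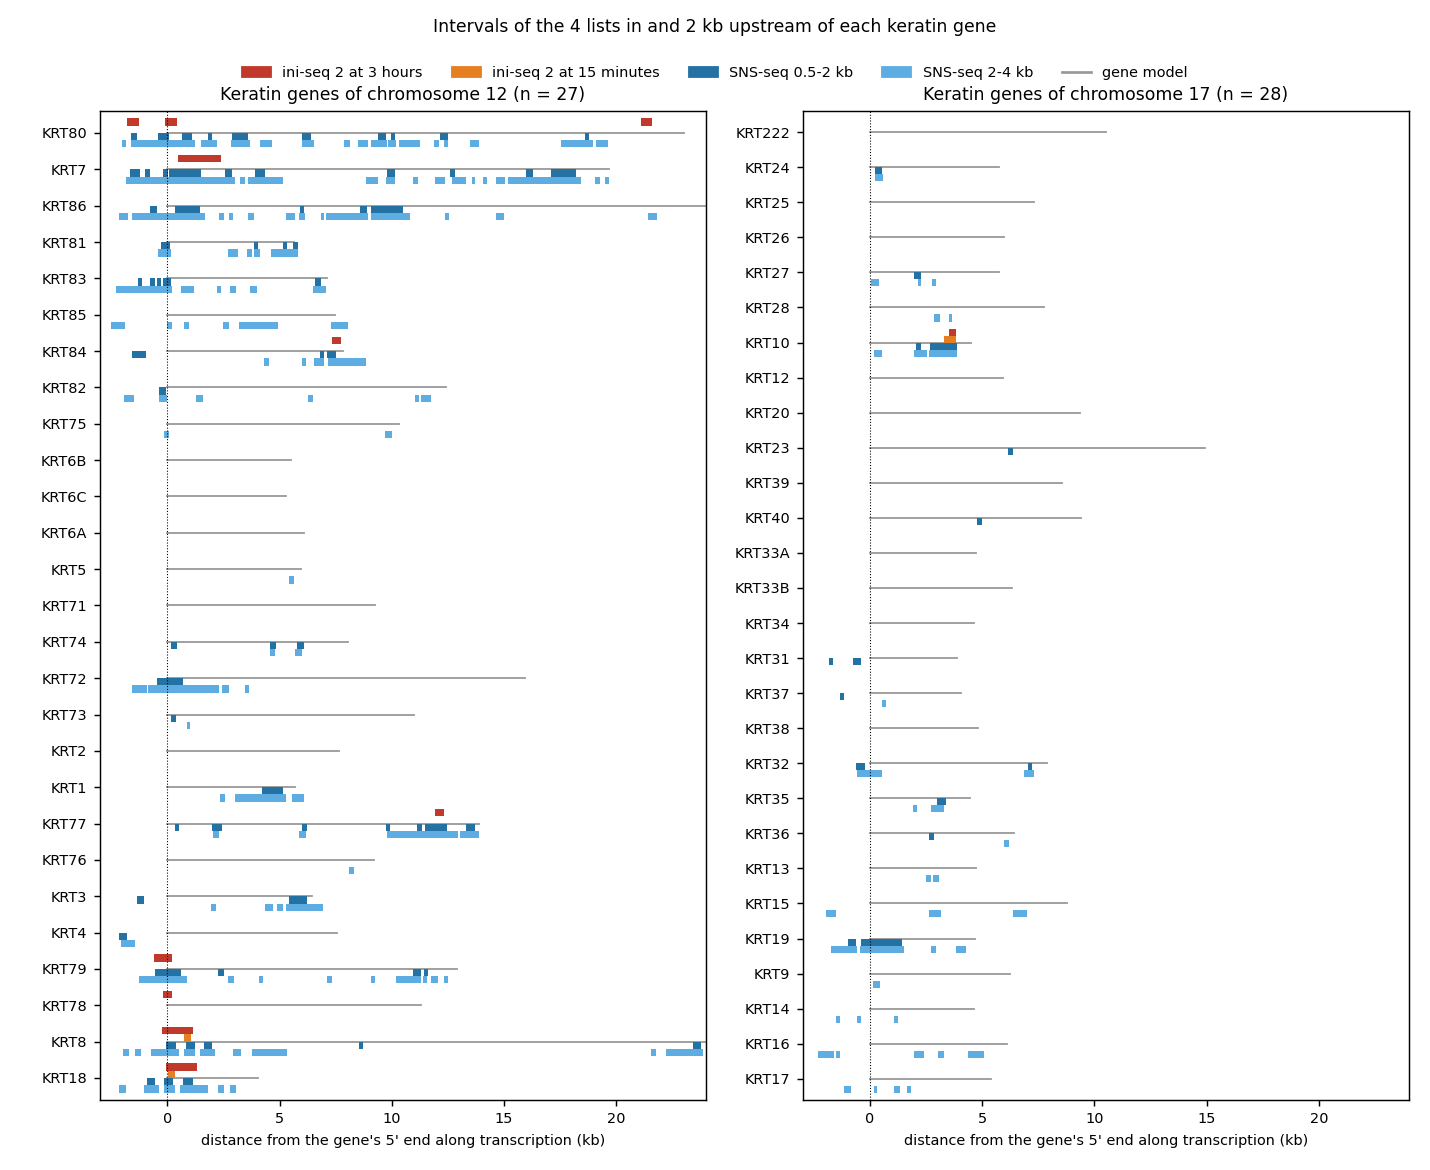
Each row is a keratin gene, and the x axis gives the distance in kb from its 5' end along the direction of transcription, with the gene model as a grey line and the intervals of the 4 lists as coloured bars. Bars are drawn at least 0.15 kb wide and the axis ends at 24 kb, so the inner parts of KRT86 and KRT8 are cut off. The 3-hour and 15-minute bars sit on few genes, and on chromosome 17 only KRT10 has them.

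The sequences below show the exon under the most efficient keratin origin and, for comparison, the glycine-codon stretch of KRT9, which had no ini-seq 2 interval. Keratin 10 and keratin 9 are type I keratins of the upper epidermis and of palm and sole skin, and both have glycine-rich ends. The first sequence is the whole 3-hour origin of KRT10, in the coding orientation, and the other is the 100-codon stretch of KRT9 with the most GGN codons, the codons for glycine. Both are hg38, and capitals mark in-frame GGN codons.
KRT10 origin, chr17:40818801-40819100, minus strand: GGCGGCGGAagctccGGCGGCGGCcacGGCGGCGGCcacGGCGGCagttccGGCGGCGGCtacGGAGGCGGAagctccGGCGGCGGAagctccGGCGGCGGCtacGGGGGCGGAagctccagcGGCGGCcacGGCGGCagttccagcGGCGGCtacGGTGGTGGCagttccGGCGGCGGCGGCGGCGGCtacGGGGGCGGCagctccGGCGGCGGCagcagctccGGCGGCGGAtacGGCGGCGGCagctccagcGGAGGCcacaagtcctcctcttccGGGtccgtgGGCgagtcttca
KRT9 stretch, chr17:41567420-41567719, minus strand: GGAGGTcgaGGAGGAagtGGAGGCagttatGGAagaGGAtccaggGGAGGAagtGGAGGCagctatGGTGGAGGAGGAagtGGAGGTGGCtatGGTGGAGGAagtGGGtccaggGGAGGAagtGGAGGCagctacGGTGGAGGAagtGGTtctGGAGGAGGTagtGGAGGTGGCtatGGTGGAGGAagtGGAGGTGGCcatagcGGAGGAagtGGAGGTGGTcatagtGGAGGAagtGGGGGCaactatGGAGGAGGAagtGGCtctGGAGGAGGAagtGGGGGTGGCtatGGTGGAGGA

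The KRT10 origin covered 300 bp, all of them in coding exon 7 of 8, from 3514 to 3813 bp downstream of the 5' end. Its efficiency, the share of HL reads among HL and LL reads, was 0.963, higher than 94.5% of all 3-hour origins. Of its 100 whole codons, 57 were GGN, and its GC content was 78.7%. Every 50-mer of the interval occurred once in hg38. The 15-minute list had an origin of 500 bp here, from 3314 to 3813 bp downstream of the 5' end. That origin contained the annotated start of a long non-coding RNA gene, KRT10-AS1, and the 3-hour origin contained no annotated gene start. The KRT9 stretch had 65 GGN codons of 100, as many as the richest 100 codons of KRT10 (65), and these were the highest counts among the 55 keratin genes. The third base was G or C in 53 of the 65 GGN codons of KRT10 (81.5%) and in 12 of the 65 of KRT9 (18.5%). The stretches accordingly differed in GC content, 81% in KRT10 and 59.7% in KRT9. KRT1, the type II partner of KRT10, had 60 GGN codons in its richest 100 (GC content 55.7%), KRT2 had 59 (63%) and KRT3 had 58 (65.3%), and none of these had a 3-hour origin anywhere in the gene region. KRT77, a type II keratin of eccrine sweat gland ducts, had a 3-hour origin in its last coding exon, number 9, where 37 of 79 whole codons were GGN. The keratin stretches richest in glycine codons thus included both the most efficient origin and genes without one.

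Promoters are shown for the keratin genes with the most efficient 3-hour origins that the RefSeq table holds and for as many of the same subfamily without one. The table, on GRCh38.p14, holds 38 promoters of 34 keratin genes, and each sequence gives the 250 bases upstream of a RefSeq start. Among the keratin genes with a 3-hour origin, KRT80, KRT7, KRT86, KRT77, KRT78 and KRT18 have no entry. Capitals mark CG dinucleotides and the motif TATAAA.
KRT79 promoter, chr12:52834312-52834561, minus strand: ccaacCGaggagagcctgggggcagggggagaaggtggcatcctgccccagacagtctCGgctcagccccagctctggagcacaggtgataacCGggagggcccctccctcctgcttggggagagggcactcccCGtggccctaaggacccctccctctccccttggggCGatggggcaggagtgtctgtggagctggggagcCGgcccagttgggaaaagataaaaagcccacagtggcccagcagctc
KRT4 promoter, chr12:52814117-52814366, minus strand: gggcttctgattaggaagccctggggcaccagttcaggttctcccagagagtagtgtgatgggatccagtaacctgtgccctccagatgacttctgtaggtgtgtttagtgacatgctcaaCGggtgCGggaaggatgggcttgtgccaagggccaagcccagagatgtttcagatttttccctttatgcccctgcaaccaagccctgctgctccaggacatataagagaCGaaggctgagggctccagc
KRT10 promoter, chr17:40822615-40822864, minus strand: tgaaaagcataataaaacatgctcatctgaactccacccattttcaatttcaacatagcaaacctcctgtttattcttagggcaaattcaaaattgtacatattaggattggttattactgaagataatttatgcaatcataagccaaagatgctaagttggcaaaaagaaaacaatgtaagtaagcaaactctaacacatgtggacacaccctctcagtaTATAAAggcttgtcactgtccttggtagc
KRT9 promoter, chr17:41572060-41572309, minus strand: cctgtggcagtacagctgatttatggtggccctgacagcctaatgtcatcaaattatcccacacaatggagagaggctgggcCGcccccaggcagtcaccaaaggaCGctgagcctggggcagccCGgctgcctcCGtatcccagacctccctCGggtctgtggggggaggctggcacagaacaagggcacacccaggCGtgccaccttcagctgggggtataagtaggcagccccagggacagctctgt
KRT84 promoter, chr12:52385653-52385902, minus strand: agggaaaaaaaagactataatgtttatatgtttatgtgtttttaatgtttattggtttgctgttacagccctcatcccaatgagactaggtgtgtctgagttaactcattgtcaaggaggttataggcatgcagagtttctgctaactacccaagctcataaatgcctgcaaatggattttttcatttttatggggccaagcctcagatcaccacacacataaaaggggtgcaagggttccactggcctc
KRT31 promoter, chr17:41397609-41397858, minus strand: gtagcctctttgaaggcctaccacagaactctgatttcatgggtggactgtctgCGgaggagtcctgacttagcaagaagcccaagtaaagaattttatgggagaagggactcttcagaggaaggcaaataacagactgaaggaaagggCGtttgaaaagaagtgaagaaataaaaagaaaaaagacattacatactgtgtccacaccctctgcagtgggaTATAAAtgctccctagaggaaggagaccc
KRT8 promoter, chr12:52926470-52926719, minus strand: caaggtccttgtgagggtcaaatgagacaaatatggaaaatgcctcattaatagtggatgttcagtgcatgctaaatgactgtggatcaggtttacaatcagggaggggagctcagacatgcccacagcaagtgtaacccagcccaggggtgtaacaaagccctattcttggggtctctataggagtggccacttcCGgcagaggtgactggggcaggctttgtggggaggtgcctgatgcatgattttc
KRT20 promoter, chr17:40885243-40885492, minus strand: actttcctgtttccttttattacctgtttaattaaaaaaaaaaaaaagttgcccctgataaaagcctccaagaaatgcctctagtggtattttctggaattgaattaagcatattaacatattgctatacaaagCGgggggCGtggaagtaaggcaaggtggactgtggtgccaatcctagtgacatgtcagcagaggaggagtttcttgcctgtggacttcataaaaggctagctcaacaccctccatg

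Of all 38 keratin promoters in the table, that of KRT79 alone overlapped a 3-hour origin. This count leaves out KRT80, KRT7, KRT78 and KRT18, which have no entry and whose canonical starts lay in 3-hour origins. The share of other promoters that overlapped one was not computed. KRT79, a keratin of the hair follicle canal, had 6 CG dinucleotides and 66.8% GC in these 250 bases, and KRT4, the oral mucosa keratin next to it, had 3 and 54.8%. The KRT9 promoter also had 6 CG dinucleotides, with 62.0% GC, and no 3-hour origin. The promoters of KRT10 and KRT84 had no CG dinucleotide, and their origins lay in coding exons far downstream. The KRT8 sequence belongs to a start inside its gene model, away from both of its origins. KRT20, the keratin of umbrella cells in the urothelium, and KRT31, a hair cortex keratin, had 2 CG dinucleotides each and no 3-hour origin. TATAAA lay 29 bases upstream of the start in KRT10 and in KRT31, counted from the first base of the motif. Over all 38 keratin promoters, 19 (50%) held TATAAA on the coding strand and 21 (55.3%) on either strand, against 6.76% and 10.7% of 35078 promoters of other genes. The number of CG dinucleotides ranged from 0 to 7 with a median of 2 in the keratin promoters, and its median was 11 in the others. These values cover 34 of the 55 keratin genes, with KRT40 and KRT85 counted repeatedly. Among the genes left out are KRT7, KRT18 and KRT80 as well as the GC-rich KRT14, KRT15, KRT16, KRT17 and KRT19, so they may not hold for all keratin genes. A match of these letters is a description of the sequence and not evidence of binding.

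The list of simple epithelial keratins, in which KRT80 was placed, had the largest share of genes with a 3-hour origin. It was 4 of 8 (KRT80, KRT7, KRT8 and KRT18), although the interval of this share ran from 15.7 to 84.3%. KRT8 and KRT18, the type II and type I pair that is expressed first in development, lie beside each other on chromosome 12 and shared 1 origin of 1400 bp. It had an efficiency of 0.852, a GC content of 62.7%, and contained the annotated start of KRT18. The 15-minute list had an origin of 300 bp inside it with a Z-score of -0.21, where 0 is the mean of that list. The 5' end of the KRT8 gene model, which belongs to a long transcript, also lay in the shared origin, and the canonical KRT8 start was 44878 bp further in. A second KRT8 origin of 700 bp lay in an intron, 976 to 1675 bp downstream of the canonical start. Its efficiency was 0.873 and its 15-minute Z-score -1.68, lower than all but 4.96% of that list. Each of the KRT8 and KRT18 origins overlapped SNS-seq peaks of both fractions.

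KRT7, the type II keratin of glandular and urothelial cells, had the longest keratin origin, 1900 bp, with an efficiency of 0.810. It began 242 bp upstream of the canonical start and ended 1657 bp downstream of it. It held 4 G4 motifs, runs of guanines that can fold into a G-quadruplex, and its GC content was 64.8%. KRT80, a type II keratin of differentiating epithelia, was the only keratin gene with 3 origins. The origin over its start had an efficiency of 0.906 and the one upstream 0.802, and both overlapped SNS-seq peaks of both fractions. The KRT80 origin in the last exon had 0.825 and overlapped no SNS-seq peak. None of the KRT7 and KRT80 origins appeared at 15 minutes. KRT19, the type I keratin of ducts and urothelium, had no ini-seq 2 interval, and its nearest 3-hour origin lay 107693 bp from its 5' end. KRT19 nevertheless had a GC content of 64.8% in the 1 kb around the 5' end and a CpG ratio, observed over expected CG dinucleotides, of 0.752, which compare with 63.2% and 0.713 in KRT18. It also had 2 SNS-seq peaks of 0.5-2 kb and 4 of 2-4 kb, and a peak of each fraction covered its 5' end. KRT20 and KRT222 had no interval in any list, and KRT23 had 1 peak, of 0.5-2 kb.

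Of the 21 keratins of stratified epithelia, 4 had a 3-hour origin (19.0%, 5.45 to 41.9): KRT77, KRT79, KRT78 and KRT10. The KRT79 origin of 800 bp and the KRT78 origin of 400 bp covered the starts of these neighbouring type II genes, with efficiencies of 0.824 and 0.829. The KRT77 origin, 400 bp long, had 0.829. KRT78 was the only one of the 10 genes without an SNS-seq peak of either fraction, and 96.2% of the 50-mers in the 4 kb around its start were unique. The basal layer pair had no ini-seq 2 interval. KRT5 had 1 SNS-seq peak, of 2-4 kb, and a nearest 3-hour origin 142230 bp away. KRT14 had 3 peaks of 2-4 kb, with the nearest 3-hour origin 49106 bp away. KRT13, the type I keratin of mucosa, had 2 peaks of 2-4 kb and none of 0.5-2 kb. KRT17 and KRT16, keratins induced in wounded skin, had 4 and 5 peaks of 2-4 kb and none of 0.5-2 kb. KRT6A, KRT6B and KRT6C, their type II partners, had no interval of any list. In these near-identical genes 86.6%, 67.4% and 67.1% of the 50-mers in the 4 kb around the 5' end were unique, and the authors kept uniquely aligned reads only. The part of shared sequence in these 3 absences was not tested.

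The 5 keratin genes with the most GC-rich 4 kb window around the 5' end and no ini-seq 2 interval were KRT17 (61.2%), KRT16 (58.7%), KRT19 (58.3%), KRT14 (56.6%) and KRT15 (55.0%). All 5 lie in the same type I stretch of chromosome 17. Their nearest 3-hour origins were 11159 bp away for KRT17, 20102 bp for KRT16, 107693 bp for KRT19, 49106 bp for KRT14 and 113472 bp for KRT15. Each had SNS-seq peaks of 2-4 kb, and of these genes KRT19 alone also had peaks of 0.5-2 kb. Unique 50-mers made up 81.4% of the window in KRT17, 87.9% in KRT14, 89.3% in KRT16, 94.9% in KRT19 and 99.8% in KRT15, and their part in the missing intervals was not tested.

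Keratins of the hair follicle root sheath had no ini-seq 2 interval in any of 9 genes, which allows a share of up to 33.6%. KRT72, a type II keratin of the inner root sheath, had 74% GC in its richest 300 bp and SNS-seq peaks of both fractions over its 5' end. The 17 hair and nail keratins included 2 with a 3-hour origin (11.8%, 1.46 to 36.4). KRT84, a type II keratin of the tongue papillae, had an origin of 400 bp and efficiency 0.894 in its last coding exon, 7352 to 7751 bp from the 5' end. KRT86, a type II hair cortex keratin, had 2 origins with efficiencies of 0.836 and 0.884. Its gene model of 59864 bp reaches over KRT81 and into KRT7, and both origins covered starts of long non-coding RNA genes within it rather than the KRT86 start. The origin of 0.884 also covered the end of the KRT86 coding sequence, in coding exons 8 and 9. Without KRT8 and KRT86, whose models reach over other keratin genes, 8 of 53 keratin genes (15.1%) had a 3-hour origin and 2 (3.77%) a 15-minute origin, an alternative chosen after seeing the data. KRT81 and KRT83, the cortex keratins beside KRT86, had SNS-seq peaks of both fractions over their 5' ends and no ini-seq 2 interval.

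In all, 13 distinct 3-hour origins lay in the keratin gene regions. Their efficiencies ranged from 0.802 to 0.963 with a median of 0.836, against a median of 0.873 over the whole list. The list was divided into 3 classes of equal size, low up to 0.842 and high above 0.906. The keratin origins held 1 high, 5 medium and 7 low. High origins were 7.69% of the keratin origins, with an interval of 0.195 to 36.0 that holds the 29.4% found among the 2717 origins of both chromosomes. Their median length was 500 bp and that of the whole list 700 bp. Of the 13 origins, 11 overlapped SNS-seq peaks of both fractions, as did 77.7% of the whole 3-hour list, the exceptions being the origin in the last exon of KRT80 and that of KRT78. All 3 origins of the 15-minute list overlapped a 3-hour origin, as did 95.1% of that whole list.

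**Figure D2:**
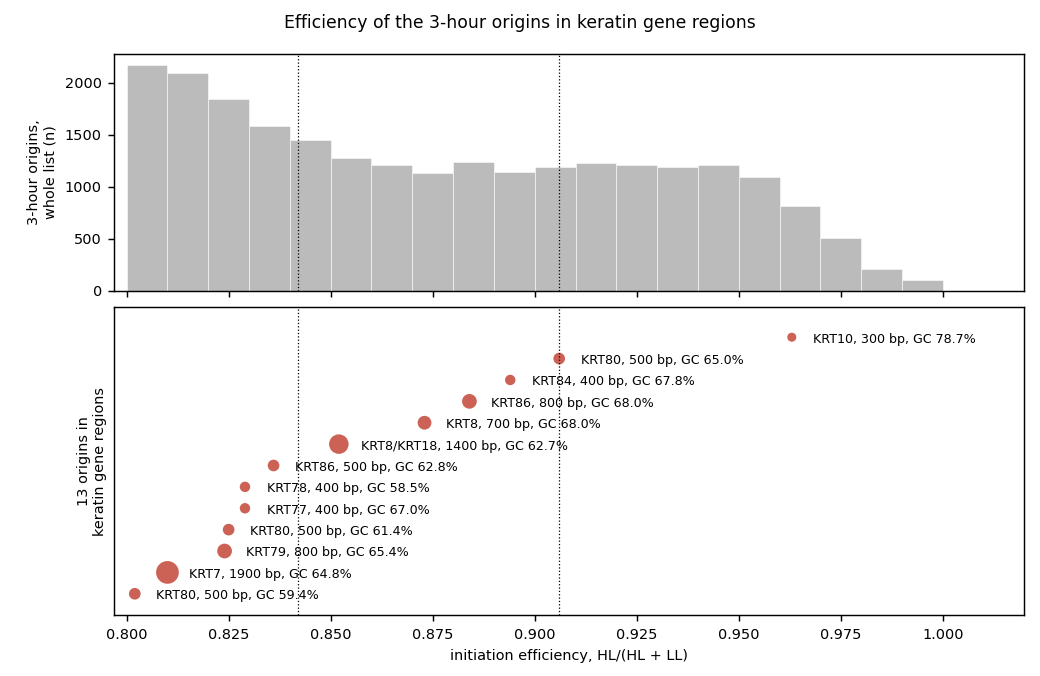
The upper panel is a histogram of the efficiency, HL/(HL + LL), of all 23905 origins of the 3-hour list, and the lower panel shows the 13 origins in keratin gene regions in order of efficiency, with point area proportional to length and dotted lines at the class limits 0.842 and 0.906. KRT10 at 0.963 is the only point of the high class, and 7 of the 13 lie in the low class.

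Counts were also made near the 5' end alone, in a window that lies inside the gene region, so they could not exceed the counts above. In the 4 kb window centred on the 5' end, 6 keratin genes (10.9%, 4.11 to 22.2) had a 3-hour origin and 2 (3.64%, 0.443 to 12.5) a 15-minute origin, against 60.0% and 40.2% of all genes on both chromosomes. Peaks of SNS-seq lay in the windows of 22 (40%) and 27 (49.1%), against 71.9% and 77.9%. The 5' end itself lay within a 3-hour origin in 5 keratin genes (KRT80, KRT79, KRT78, KRT8 and KRT18), and in 45.0% of other genes. For SNS-seq, 9 keratin 5' ends lay in a peak of 0.5-2 kb and 13 in a peak of 2-4 kb, against 48.3% and 65.8% of other genes.

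Of the 45 keratin genes that lacked an ini-seq 2 interval, 30 had at least 1 SNS-seq peak (66.7%, 51.0 to 80.0), close to the 64.8% of 627 other genes and the 70.7% of 99 GC-matched genes that lacked one. Peaks of both fractions were found at 16 of the 45 (35.6%, 21.9 to 51.2), against 46.9% and 54.5%. The 16 included KRT1, KRT3, KRT4, KRT19 and KRT72 as well as the hair keratins KRT81, KRT83, KRT82, KRT32, KRT35, KRT36 and KRT37. A further 11 keratin genes had peaks of 2-4 kb alone, among them KRT5, KRT13, KRT14, KRT16 and KRT17, and 3 (KRT23, KRT40 and KRT31) had peaks of 0.5-2 kb alone. No interval of any list was found at 15 genes. These were KRT6A, KRT6B, KRT6C, KRT2 and KRT12 of stratified epithelia, KRT71, KRT25 and KRT26 of the root sheath, KRT20 and KRT222, and the hair keratins KRT33A, KRT33B, KRT34, KRT38 and KRT39. The keratin gene regions held 86 distinct peaks of 0.5-2 kb with a median length of 328 bp and 166 of 2-4 kb with a median length of 354 bp.

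Base composition was then compared, since the intervals of all 4 lists are richer in GC than either chromosome. Each keratin gene was set beside the 10 protein-coding genes of its own chromosome nearest in GC content of the same region, 435 distinct genes with a largest difference of 0.710 percentage points. Of these matched genes 77.5% had a 3-hour origin, and the difference, keratin minus matched, was -59.3 percentage points. It was -46.2 at 15 minutes (matched share 51.6%), -39.3 for peaks of 0.5-2 kb (90.2%) and -26.0 for peaks of 2-4 kb (91.5%). In each list the matched share lay above the keratin interval, which takes the clustered keratin genes as independent. The size of the difference depended on the matching. Keratin genes are short, with a median of 7098 bp against 21765 bp in the matched genes, and with length matched as well the differences were -42.0, -28.5, -29.6 and -18 in the same order. The richest 300 bp of a keratin region had a median GC content of 66%, against 75% in the 435 genes matched on mean GC content. Matched on the GC content of the richest 300 bp, an alternative chosen after seeing the data, 40.4% of the matched genes had a 3-hour origin and 8.55% a 15-minute origin. The differences were then -22.2 and -3.09 percentage points, and -21.6 and -7.45 for SNS-seq. The matched shares at 15 minutes and for peaks of 2-4 kb (72.9%) then lay within the keratin intervals, and those at 3 hours and for peaks of 0.5-2 kb (72.5%) did not.

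**Figure D3:**
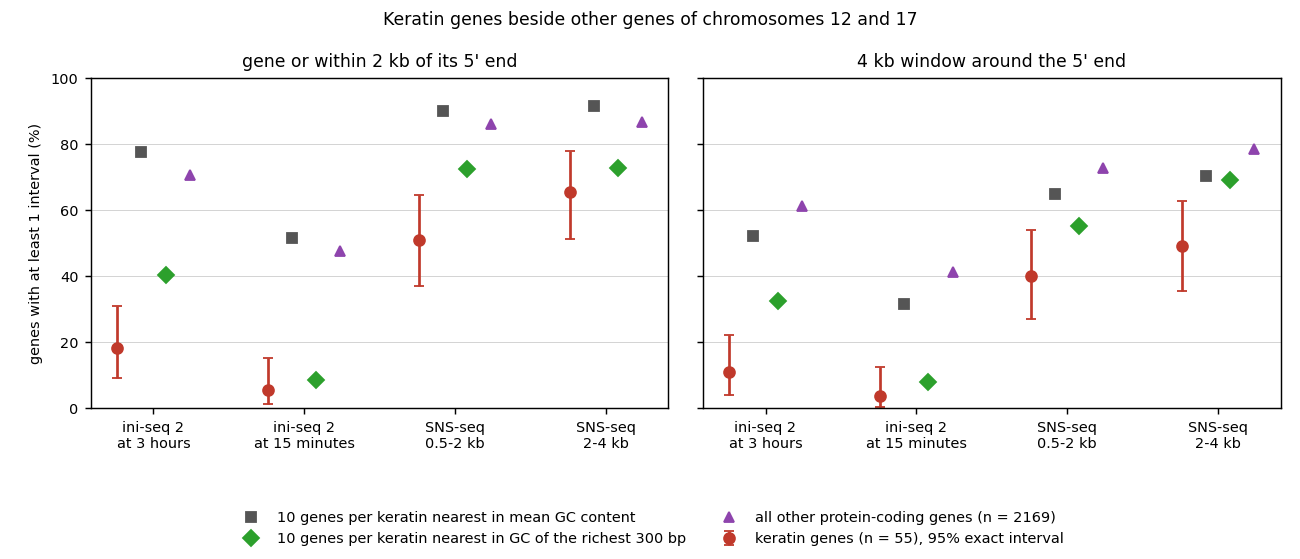
Share of genes with at least 1 interval, in percent, for the 4 lists, counted over the gene and 2 kb upstream (left) or over the 4 kb window around the 5' end (right). Red points are the 55 keratin genes with 95% exact intervals, and the other symbols are comparison genes without error bars. The keratin points lie under the grey squares, genes matched on mean GC content, in each list, and nearer to the green diamonds, genes matched on the GC content of the richest 300 bp.

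By window GC content, no keratin gene under 55% had a 3-hour origin within 2 kb of its 5' end. This was 0 of 44 genes, which allows a share of up to 8.04%, against 749 of 1520 other genes (49.3%). The count depends on the 2 kb limit, since KRT85 (51.9% GC) had a 3-hour origin 2120 bp from its 5' end. Between 55 and 60%, 5 of 9 keratin genes had a 3-hour origin in the window, against 85.4% of 424 others. Counted over consecutive windows of 1 kb rather than over genes, the intervals of the keratin regions held the share of the rest of both chromosomes in each bin up to 55% GC, and the keratin share was lower above it. Under 45% GC, 1 of 185 windows in keratin regions overlapped a 3-hour origin (0.541%, 0.0137 to 2.97), against 0.0560% elsewhere, and from 45 to 50% it was 0.575% (0.0145 to 3.16) against 0.520%. In windows of 50 to 55% GC, 2.19% (0.599 to 5.50) did so in keratin regions and 3.16% elsewhere. In windows of 55 to 60%, it was 7.96% (3.71 to 14.6) against 14.6%. In windows of 60% and over, 7 of 26 (26.9%, 11.6 to 47.8) did so, against 50.9% of 5710 elsewhere. At 15 minutes it was 1 of 26 (3.85%, 0.0973 to 19.6) against 24.5%. The windows share genes and are not independent.

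**Figure D4:**
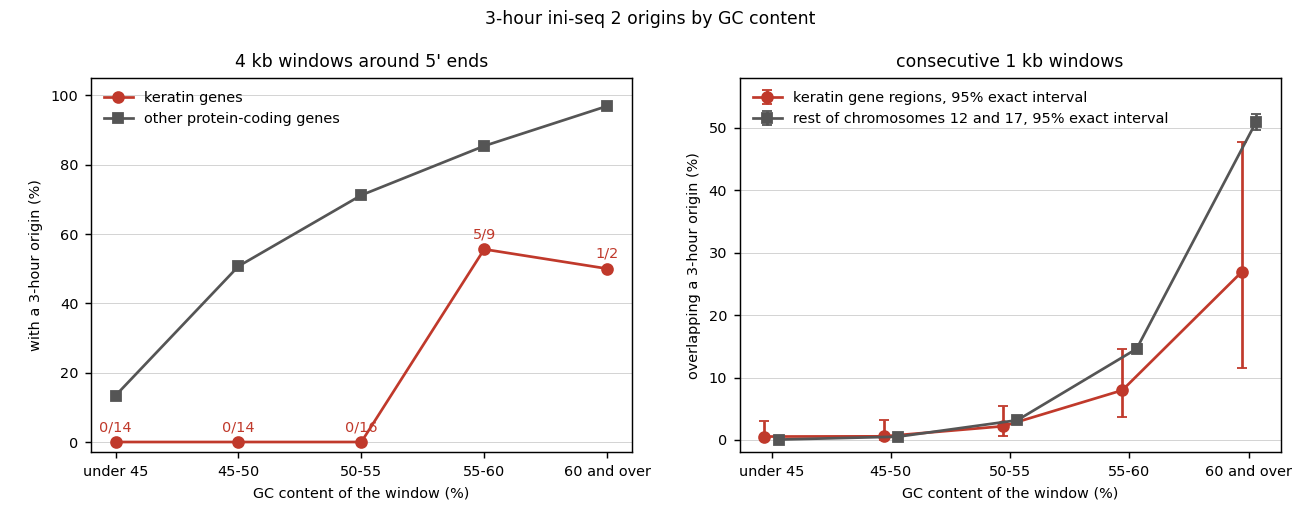
Percent of windows with a 3-hour origin by GC content, for the 4 kb windows around gene 5' ends (left, keratin counts printed beside the points) and for consecutive 1 kb windows (right, with 95% exact intervals). On the left no keratin gene under 55% GC has an origin, and on the right the keratin and other windows run close together up to 55% and are farthest apart at 60% and over, 26.9% against 50.9%.

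The chromosome 12 and chromosome 17 genes differed in their counts. On chromosome 12, 9 of 27 keratin genes had a 3-hour origin (33.3%, 16.5 to 54.0), and on chromosome 17 it was 1 of 28 (3.57%, 0.0904 to 18.3), with shares of 80% and 75% in the GC-matched genes. The intervals overlap, and the difference between the chromosomes was not tested. The median window GC content was 51.3% on chromosome 12 and 46.2% on chromosome 17. At 15 minutes the counts were 2 and 1. Peaks of 0.5-2 kb were found at 17 and 11 genes, and peaks of 2-4 kb at 21 and 15.

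Seen along the chromosome, the type II cluster held more origins per Mb than chromosome 12 as a whole, in a comparison not matched on GC content. The 784 kb from KRT80 to KRT18, with a GC content of 49.1%, held 19 origins of the 3-hour list, or 24.2 per Mb, against 8.16 per Mb over chromosome 12, whose GC content is 40.8%. The cluster held 4 origins of the 15-minute list, 102 peaks of 0.5-2 kb and 198 of 2-4 kb. These are 5.10, 130 and 253 per Mb, against 3.25, 54.9 and 65.8 over the chromosome. The 3-hour origins lay on either side of a long gap. This gap of 313 kb between the origins in KRT84 and KRT77 held the 5' ends of 13 keratin genes, from KRT84 to KRT1, among them KRT5 and the 3 KRT6 genes. It ranked 94 in length among the 1086 gaps between 3-hour origins on chromosome 12.

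The type I genes of chromosome 17 lie in 2 stretches on either side of a 359 kb stretch of genes for keratin-associated proteins, the matrix proteins of hair. The stretch from KRT222 to KRT40, 332 kb with 40.1% GC, held 2 origins of the 3-hour list, or 6.02 per Mb. Chromosome 17, whose GC content is 45.3%, held 19.7 per Mb. This stretch is thus poorer in GC than the chromosome, whereas the other keratin stretch is richer, and the comparison was not matched on GC content. The stretch from KRT33A to KRT17, 279 kb with 48.8% GC, held 0 origins of either ini-seq 2 list. It held 19 peaks of 0.5-2 kb and 45 of 2-4 kb, which are 68.2 and 161 per Mb against 112 and 156 over the chromosome. A gap of 308 kb between 3-hour origins contained all 16 keratin 5' ends of this stretch and ranked 54 among 1629 gaps on chromosome 17. In the 15-minute list, a gap of 915 kb contained 22 keratin 5' ends and ranked 7 among 673.

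**Figure D5:**
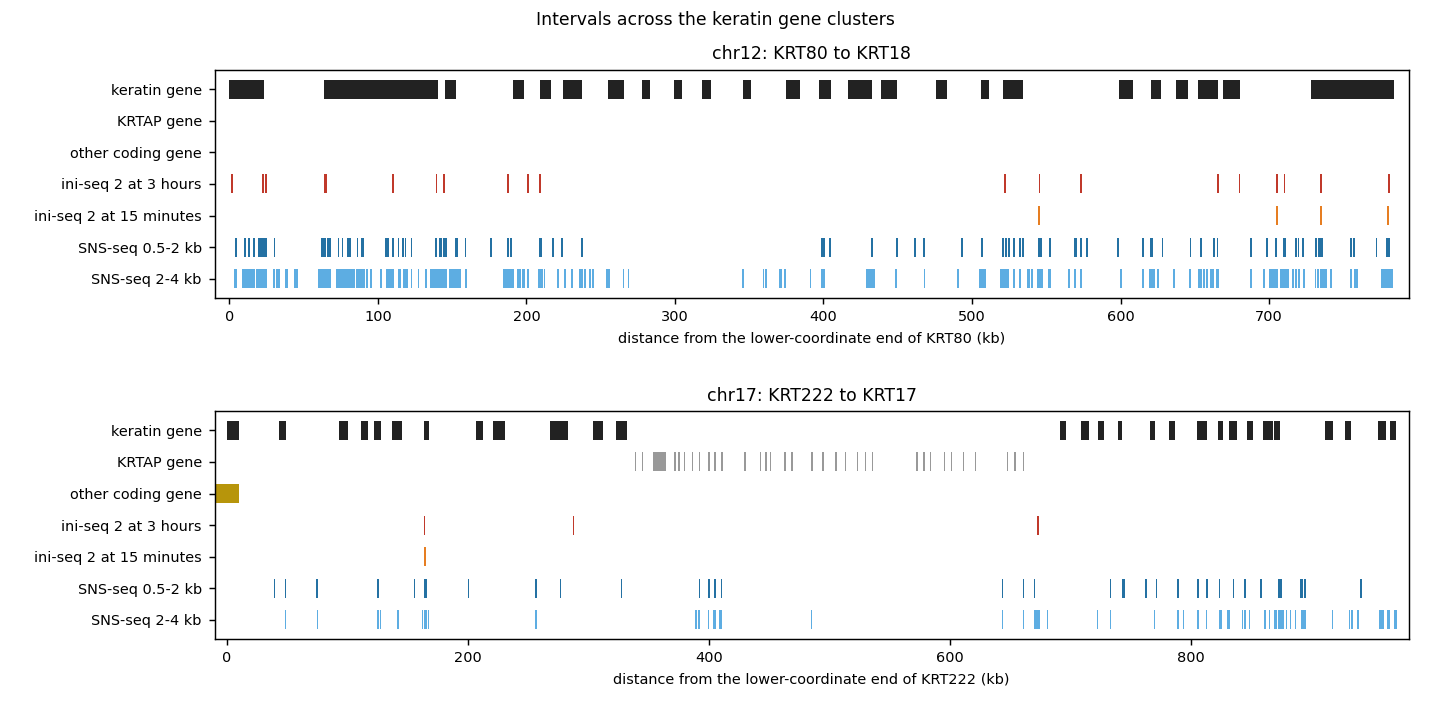
Maps of the chromosome 12 cluster (top) and of both chromosome 17 stretches with the keratin-associated protein (KRTAP) genes between them (bottom), with distance in kb on the x axis and 1 row for each kind of gene and each list. Bars are drawn at least 1.2 kb wide. The 3-hour origins of chromosome 12 lie on either side of the 313 kb gap, and the right-hand stretch of chromosome 17 has SNS-seq peaks but no ini-seq 2 origin.

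Other genes of epithelial filaments, junctions and cornified cells were counted at 3 hours beside the 66.4% of all protein-coding genes. These lists, and the keratin-associated protein genes below, were not matched on GC content or length. Intermediate filament genes outside the keratins had an origin in 10 of 15 (66.7%, 38.4 to 88.2), the exceptions being BFSP2, NEFM, NEFL, INA and NEFH. Desmosome genes, which anchor keratin filaments at cell junctions, had one in 11 of 16 (68.8%, 41.3 to 89.0). Both shares lie near that of all genes. The 5 desmosome genes without an origin were DSC1, DSC3, DSG1, DSG3 and DSG4. Genes of the cornified envelope, the cross-linked shell of dead skin cells, had one in 4 of 12 (33.3%, 9.92 to 65.1), namely TCHH, IVL, LORICRIN and TGM1. LORICRIN, which encodes a glycine-rich envelope protein, was the only one of the 12 with a 15-minute origin. None of the 34 keratin-associated protein genes of chromosome 17 had an interval of either ini-seq 2 list. This allows a share of up to 10.3% if these neighbouring genes are taken as independent. SNS-seq peaks of 0.5-2 kb and 2-4 kb were found at 5 and 6 of them. The authors kept uniquely aligned reads only, and the part of shared sequence in these absences was not tested.

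Read mapping differed among the keratin genes. The share of unique 50-mers in the 4 kb window had a median of 97.5% and was lowest in KRT81, at 56.9%. Among the 45 keratin genes with at least 90% unique 50-mers, 10 (22.2%) had a 3-hour origin, against 80.4% of their GC-matched genes, a difference of -58.2 percentage points.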

How the data were processed

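Replication origins were mapped in EJ30 cells by ini-seq 2 and SNS-seq. Bowtie2 was the authors' aligner, on hg38, and reads with more than 1 placement as well as duplicates were dropped. For ini-seq 2 the authors scaled HL and LL counts per 100 bp window to library size and took windows whose log2 HL over LL ratio reached 2. Windows up to 500 bp apart became 1 island, and islands from 200 bp in length with an efficiency from 0.8 upward were kept. The deposited 3-hour values are these efficiencies, each a fraction. Their column heading reads Z-score, and 2 biological replicates were pooled. The deposited 15-minute value is a score, a Z-score over that list, with replicates not given in the sources used here. The authors' SNS-seq peaks came from MACS2 with genomic DNA as input. Those files contain positions without values, used as given. The genomic DNA library was not analysed here. Versions of Bowtie2 and MACS2 are not given in the sources used here. No list holds counts, so depth per interval is unknown.

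Gene models were those of GENCODE 44 on hg38. Intervals were assigned to genes by at least 1 bp of overlap, GC content was read from hg38, and exact Clopper-Pearson intervals of 95% were computed in Python 3.11.15 with scipy 1.17.1, numpy 2.4.6, pandas 2.3.3 and pysam 0.24.0. Figures used matplotlib 3.10.9. Overlap counting and the search for unique 50-mers were checked on simulated data. With 1 list per condition no test was run. The keratin genes, subfamily lists and comparisons were chosen with earlier results of these data known. Named genes were all keratin genes with an ini-seq 2 interval, KRT5, KRT7, KRT8, KRT13, KRT14, KRT17, KRT18, KRT19 and KRT20 whatever their values, and the 5 keratin genes without an ini-seq 2 interval whose 4 kb window was richest in GC. Others are named where a count of genes is spelled out, after their values were seen. Alternatives changed the overlap, the region, the matching, the gene set and the interval threshold.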

Additional observations from a re-analysis of the deposited data

How the results depend on the processing

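Values are keratin minus GC-matched shares of genes with an interval, in percentage points, and no alternative turned a direction. In the 4 kb window around the 5' end the differences were -41.3 (3 hours), -28.0 (15 minutes) and -24.9 (SNS-seq 0.5-2 kb). Within 10 kb of the 5' end they were -18.2 for SNS-seq 0.5-2 kb and -7.82 for 2-4 kb. Matching on GC content and length gave -42.0 at 3 hours and -28.5 at 15 minutes, and matching on GC content of the 4 kb window -43.1 and -33.8. With an efficiency of at least 0.9 the 3-hour difference was -40.5, with 2 keratin genes left. With a 15-minute Z-score of at least 0 it was -26.7, with 0 keratin genes left. Peaks found in both fractions gave -45.8 for SNS-seq 2-4 kb. Matching on the richest 300 bp of the region, chosen after seeing the data, gave -22.2 at 3 hours, -3.09 at 15 minutes, -21.6 for 0.5-2 kb and -7.45 for 2-4 kb. In the 4 kb window the same matching gave -21.5, -4.18 and -15.1 for the first 3 of these lists. The cause of each of these shifts was not tested, apart from the fewer intervals that stricter thresholds leave. The other alternatives moved the differences by less than the keratin interval. No paired analysis was possible because each condition has 1 list. Without counts, a missing interval cannot be told from one that lay under the calling threshold.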

Other observations

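Within the chromosome 12 keratin cluster, 7 of the 19 origins of the 3-hour list lay outside every keratin gene region and overlapped no annotated gene. Their efficiencies ran from 0.804 to 0.928. The most efficient, 0.928 over 700 bp with 71.3% GC, lay between KRT77 and KRT76 and was the only one of the 7 in the high class. It held a 15-minute origin of 300 bp with a Z-score of -1.34. A second origin with a 15-minute counterpart, 0.843 over 1100 bp, lay between KRT78 and KRT8, where the 15-minute origin of 400 bp had a Z-score of -0.12. On chromosome 17, an origin of 0.905 over 900 bp had a GC content of 49.8%, below that of any of the 13 origins in keratin gene regions, and overlapped a long non-coding RNA gene between KRT23 and KRT39. The single 3-hour origin among the keratin-associated protein genes, 0.807 over 1600 bp, overlapped the pseudogene TBC1D3P7.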
